A study of Mus musculus with 6 samples.

Results

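Skeletal muscle contractile and metabolic genes were followed through RNA sequencing of mouse knee cartilage. The set was given by gene symbol and held 38 genes, all of which were found among the 36711 gene identifiers measured. For description they were divided by role into 14 fast contractile genes, 7 slow contractile genes, 9 genes of the shared sarcomere and calcium release, and 8 genes of energy metabolism. Cartilage was dissected from the tibia and femur of 3-month-old mice on a C57/Bl6 background, and that of 2 knees was pooled for each RNA sample. There were 3 WT libraries and 3 miR-455 null libraries, in which a germline deletion made by genome editing takes out part of both mature microRNAs. The labels name no treatment. Neither the source animals of the pooled knees nor any relation of WT to null mice is stated in the labels, so p-values measure the spread between these 3 and 3 libraries. The deleted microRNA was not analysed here, and the genotype labels were not checked against it.

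A skeletal muscle fibre contracts when myosin heavy chains pull on actin filaments, with troponin and tropomyosin as the calcium-sensitive switch. Fast and slow fibres use different gene copies for most of these parts, and fast fibres lean on glycolysis and rapid calcium uptake where slow fibres lean on oxidation. Cartilage contains no muscle fibre, but muscles, tendons and their attachments lie against the knee.

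Values are called abundances here, for the signal that the authors deposited for each gene as normalised counts. They are not whole numbers and showed little relation to transcript length, so they were read as scaled for length and library, which no source used here states outright. Total abundance ran from 917819 to 1135956 per library, and 12623 to 12868 genes reached an abundance of 1. Blood and marrow genes took a large part of it. The adult globins made up 26.1% to 26.9% of abundance in the WT libraries and 11.3% to 21.3% in the null libraries. S100a8 and S100a9, the neutrophil calprotectin genes, made up 6.50% to 16.6%. Null 3 held the lowest globin share and the highest calprotectin share. The cartilage label was checked against Col2a1, the main collagen of cartilage, which lay between 18.4 and 63.8, and Acan, the main proteoglycan, which lay between 3.06 and 7.15. Cartilage genes were thus measurable but a very small part. A list of 16 of them summed to 151.2 to 267.1 per library, and a list of 16 marrow and blood genes to 268820 to 415270. In whole tissue RNA, fewer cells of a type and less RNA per cell cannot be told apart.

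Muscle genes were a very small part of each library. The 38 genes summed to 132.2, 151.3 and 146.7 in WT libraries 1 to 3 and to 332.2, 158.2 and 186.6 in null libraries 1 to 3. As a share of total abundance this was 0.0116%, 0.0162% and 0.0138% in WT and 0.0362%, 0.0162% and 0.0189% in null. Null 1 held by far the highest sum, null 3 followed, and null 2 lay just above WT 2. The muscle sum exceeded that of the cartilage list in null 1 (219.0 for cartilage) and null 3 (161.3), and lay below it in the other libraries. In the comparison of genotypes, 22 of the 38 genes reached a mean abundance of 1 and were tested by limma. These were 9 fast, 3 slow, 3 shared and 7 energy genes. The genes tested are those that were abundant somewhere, so the counts below are not counts over all 38.

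**Figure D1:**
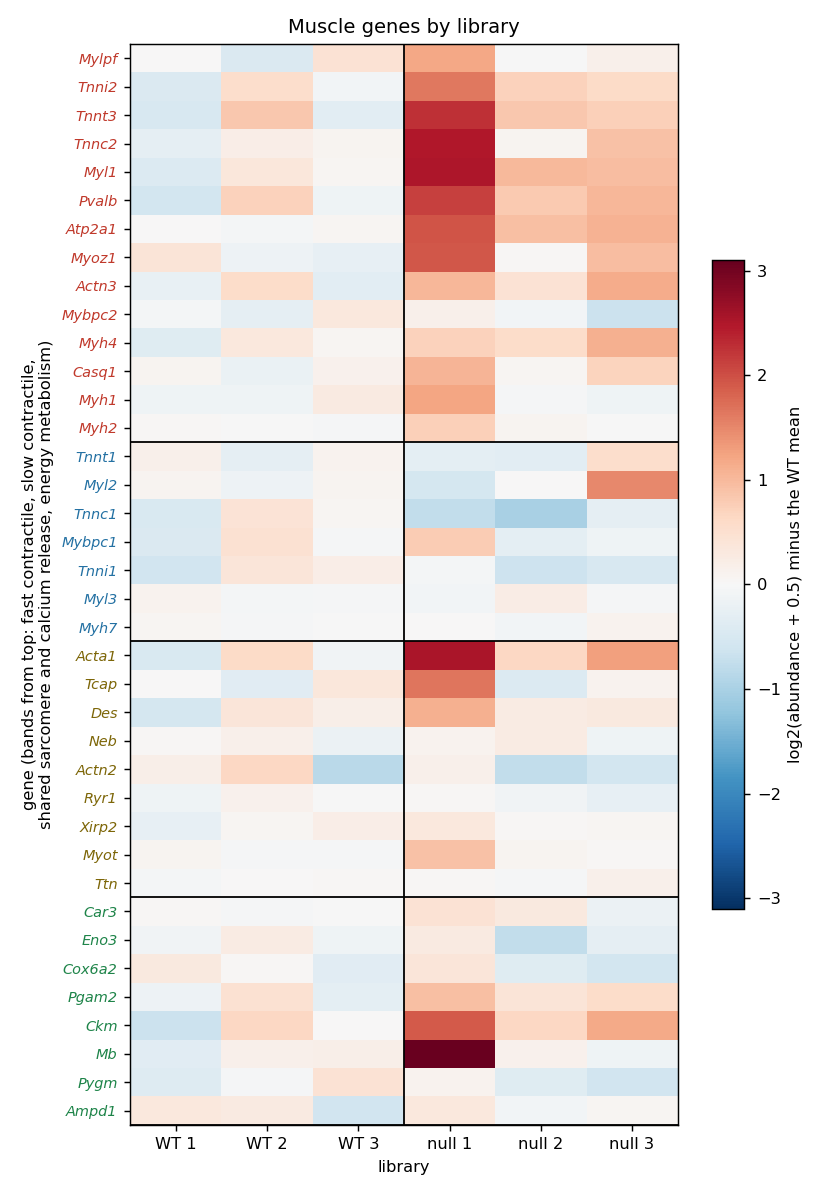
Each row is one of the 38 muscle genes and each column a library. Colour gives log2(abundance + 0.5) minus the mean of the 3 WT libraries, and rows run from the most to the least abundant gene within each role. Null 1 is the reddest column for fast and energy genes, Mb is its darkest cell, and slow genes show no such column.

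No muscle gene passed an adjusted p of 0.05 (limma, Benjamini-Hochberg adjustment over 12813 genes), where 4 genes or 0.0312% of all tested genes did. At an unadjusted limma p under 0.05, 9 of the 22 muscle genes were higher in null and 0 lower, against 3.25% and 2.33% of all tested genes. The 9 were the fast genes Tnnt3, Tnni2, Myl1, Actn3, Pvalb and Atp2a1, the shared gene Acta1 and the energy genes Ckm and Pgam2. A ratio of means of at least 2 with an unadjusted p under 0.05 was met by 8 of 22, against 0.687% of all tested genes. Actn3, Atp2a1, Myoz1 and Des had WT means under 1 and reached the mean of 1 only through their null libraries, so these 2 counts rest in part on genes that the difference itself admitted. In the fit without a filter 8 of all 38 were higher at an unadjusted p under 0.05, against 2.49% of genes above 0, and 8 of 38 met the ratio, against 1.04%. The counts were lower when some libraries were left out. Without null 1, 18 muscle genes reached the mean of 1, 4 were higher and 1 lower at an unadjusted p under 0.05, and 3 met the ratio, where the shares of all tested genes were 11.3%, 7.47% and 1.48%. Without WT 1 or without WT 3, 22 muscle genes were tested and 3 passed an unadjusted p under 0.05 in either direction. Over all tested genes 416 of 12829 and 527 of 12803 did so. The count at the ratio was 3 in each case, for which the share of all genes is not given here.

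The mean was higher in null for 30 of the 38 genes, where 51% of all 23176 genes above 0 were higher. By role this was 13 of 14 fast, 5 of 7 slow, 7 of 9 shared and 5 of 8 energy genes. The median log2 fold change, null minus WT on the log2(abundance + 0.5) scale, was 0.92 for fast, 0.011 for slow, 0.14 for shared and 0.15 for energy genes, and 0.022 for all tested genes. Without null 1 these medians were 0.57, 0.0095, 0.056 and −0.0064. The median was highest for the fast genes in both cases, and that of each role was lower without null 1.

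In 6 of the 38 genes every null library lay above every WT library, against 5.03% of all genes above 0. These were Myh4, Tnni2, Myl1, Pvalb, Atp2a1 and Acta1, and 5 of them were among the 22 tested, against 6.27% of tested genes. Of the 5, Atp2a1 was tested only through its null libraries. The number fell to 4 when each library was rescaled to the same total, and to 3 when libraries were rescaled without marrow, blood and muscle genes. The shares of all genes without overlap under these rescalings are not given here, and the 5.03% does not carry over to them. Leaving out a library cannot lower the number without overlap. It was 6 without null 1, where 15.7% of all genes did not overlap with null higher.

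The fast troponin genes were among the more abundant. Tnni2 encodes the inhibitory subunit of fast troponin and lies beside Tnnt3 on chromosome 7 (GRCm38 chr7:142441808-142444410, plus strand). Its abundance was 5.20, 10.9 and 6.86 in WT, against 23.8, 12.3 and 11.4 in null. All null libraries lay above all WT libraries, but null 2 and null 3 were close to WT 2. The ratio of means was 2.07 and the log2 fold change 0.98 ± 0.348 (SE, n = 3 a group; limma adjusted p = 0.81). Tnnt3, the subunit that ties fast troponin to tropomyosin (chr7:142498836-142516009, plus strand), was at 3.25, 8.93 and 3.75 in WT, against 24.9, 9.06 and 8.40 in null. Here WT 2 lay among the null libraries, and null 1 was 2.75 times the next library. The log2 fold change was 1.28 ± 0.499 (limma adjusted p = 0.81), and 0.79 without null 1. Tnnc2, the calcium-binding subunit, was at 3.26, 4.76 and 4.38 in WT, against 25.3, 4.34 and 8.07 in null. Null 2 lay inside the WT range for this gene (log2 fold change 1.16 ± 0.56, limma adjusted p = 0.81). An exon of Tnnc2 overlaps Ube2c on the other strand, and since no source used here states strandedness, reads from the 2 genes may not be told apart.

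Mylpf, the regulatory light chain of fast myosin, was the most abundant fast gene. It was at 25.6, 18.4 and 35.1 in WT, against 59.4, 25.1 and 28.6 in null. Apart from null 1 its values overlapped fully, and the log2 fold change of 0.45 ± 0.365 (limma adjusted p = 0.81) became 0.07 without null 1. Myl1, the essential light chain of fast fibres (chr1:66924295-66945404, minus strand), differed more. It was at 2.46, 4.53 and 3.64 in WT, against 22.0, 7.40 and 7.19 in null. The 3 null libraries lay above the 3 WT libraries with a gap between them. The ratio of means was 3.44 and the log2 fold change 1.49 ± 0.437 (limma adjusted p = 0.81), and without null 1 the ratio was 2.06.

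Atp2a1 and Pvalb, fast genes of calcium handling, also did not overlap. Atp2a1, the calcium pump that refills the sarcoplasmic reticulum of fast fibres (chr7:126445858-126463108, minus strand), was at 0.726, 0.660 and 0.758 in WT, against 4.18, 1.83 and 2.07 in null. The WT libraries were nearly equal and the lowest null library, null 2, lay well above the highest of them. It had the smallest p of the muscle genes tested (ratio 3.77, log2 fold change 1.32 ± 0.297, limma adjusted p = 0.81), and its ratio without null 1 was 2.73. With a WT mean of 0.715 it entered the tested genes only through its null libraries, so this rank is no support for a difference. One exon overlaps Rabep2 on the opposite strand. Pvalb, the soluble calcium buffer of fast fibres (chr15:78191114-78206400, minus strand), was at 2.12, 5.91 and 3.04 in WT, against 16.4, 6.30 and 7.48 in null. Null 2 exceeded WT 2 only narrowly, and the log2 fold change was 1.32 ± 0.436 (limma adjusted p = 0.81). Myl1, Pvalb and Atp2a1, like Ckm and Mb below, were picked for full values after these were seen.

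**Figure D2:**
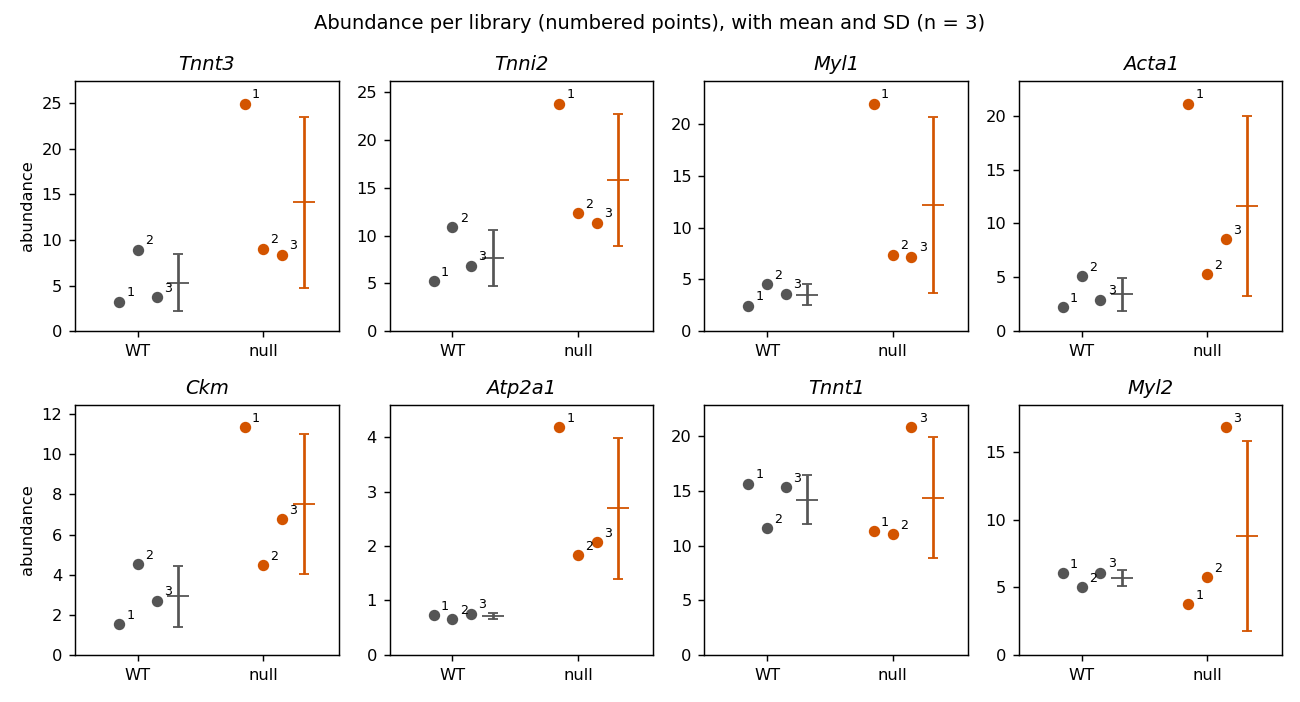
Abundance of 8 muscle genes is shown for each library, with points numbered by library and the mean and SD of 3 libraries beside them. Null 1 is far above the other libraries for the fast genes, Acta1 and Ckm, while null 3 is the highest library for the slow genes Tnnt1 and Myl2.

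Of the remaining fast genes, Actn3, the fast-fibre alpha-actinin, and Myoz1, a Z-disc protein, passed the mean of 1 and had log2 fold changes of 0.87 and 0.97 (limma adjusted p = 0.81 for each). Actn3 was highest in null 3, at 1.93, followed by null 1 at 1.73 and WT 2 at 1.12. Casq1, the calcium store of fast fibres, lay under 1.2 in all libraries. Mybpc2, fast myosin binding protein C, was the exception in direction. It was at 0.712, 0.542 and 1.09 in WT, against 0.896, 0.698 and 0.301 in null, with WT 3 highest and the groups overlapping.

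The myosin heavy chains were all low, although they are among the most abundant transcripts of muscle itself. Myh4, the chain of the fastest fibres, lies in a row with Myh2 and Myh1 on chromosome 11 (Myh4 at chr11:67238029-67260446, plus strand), and reads may be shared between these near-identical copies. It was at 0.131, 0.514 and 0.342 in WT, against 0.838, 0.712 and 1.25 in null. All null libraries were above all WT libraries, and null 3 was highest (log2 fold change 0.80 ± 0.239, limma adjusted p = 0.794 in the fit without a filter). Myh1, of intermediate fast fibres, was at 0.0425, 0.0381 and 0.218 in WT, against 0.876, 0.0762 and 0.0390 in null. Myh2, of fast oxidative fibres, was at 0.0296, 0.0152 and 0.00705 in WT, against 0.369, 0.0518 and 0.0151 in null. Both were highest in null 1, by 4.02 and 7.12 times the next library, and the other 5 libraries overlapped. Myh7, the slow chain, was at 0.0643, 0.0281 and 0.0356 in WT, against 0.0475, 0.0127 and 0.0815 in null, with full overlap. Exons of Myh1, Myh2 and Myh7 overlap antisense genes.

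The make-up of the myosin sum differed between the null libraries. Myh4 made up 39.3% of the 4 chains in null 1 but 83.5% in null 2 and 90.2% in null 3, and 49.1%, 86.3% and 56.7% in the WT libraries. Myh1 and Myh2 made up 41.1% and 17.3% in null 1. The sum of the 4 chains was only 0.268 to 2.13, so these shares rest on low values, and the number of reads behind them is unknown.

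**Figure D3:**
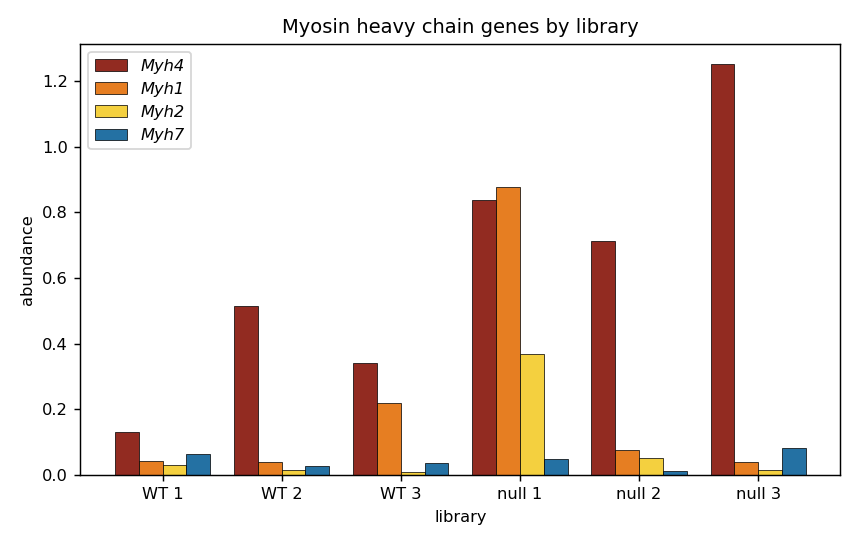
Bars give the abundance of the 4 myosin heavy chain genes in each library. Myh4 is the tallest bar in 5 of the 6 libraries and highest in null 3 (1.25), while Myh1 and Myh2 stand out in null 1 (0.876 and 0.369).

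The most abundant slow genes were highest in other libraries than the fast ones. Tnnt1, slow troponin T (chr7:4504570-4516382, minus strand), was at 15.7, 11.6 and 15.3 in WT, against 11.3, 11.1 and 20.8 in null. Null 1 and null 2 lay just below the WT libraries and null 3 above them (log2 fold change −0.03 ± 0.261, limma adjusted p = 0.98). Myl2, the regulatory light chain of slow fibres (chr5:122100951-122113472, plus strand), was at 6.02, 5.01 and 6.06 in WT, against 3.76, 5.73 and 16.8 in null. It was lowest in null 1 and highest in null 3, and an exon overlaps Ccdc63 on the other strand. Null 3 is also the library with the fewest globin and the most calprotectin transcripts, and the part of those shares in Tnnt1 and Myl2 was not tested.

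Tnnc1, the calcium sensor of slow fibres and heart (chr14:31208312-31211729, plus strand), was at 1.26, 2.76 and 2.05 in WT, against 0.939, 0.710 and 1.51 in null. Null 3 lay above WT 1, so the groups overlapped (ratio 0.52, log2 fold change −0.69 ± 0.309, limma adjusted p = 0.81). Tnni1, slow troponin I, was at 0.0186, 0.506 and 0.404 in WT, against 0.252, 0 and 0.0523 in null, with WT 2 highest. Mybpc1, slow myosin binding protein C, was at 0.0638, 0.561 and 0.246 in WT, against 0.819, 0.118 and 0.194 in null. It was the single slow gene with null 1 highest. Myl3, the slow essential light chain, lay between 0.0888 and 0.231.

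Sums over each role show the same libraries apart. The 14 fast genes summed to 45.3, 57.0 and 60.4 in WT, against 185.5, 69.9 and 79.1 in null. The ratio of means was 2.06, or 1.37 without null 1. All null libraries lay above all WT libraries. The 7 slow genes summed to 23.3, 20.6 and 24.2 in WT, against 17.2, 17.9 and 39.5 in null, a ratio of 1.1. Fast over slow abundance was 1.95, 2.77 and 2.49 in WT, against 10.8, 3.91 and 2.00 in null, so null 3 lay within the WT range. Mylpf, Tnnt1 and Myl2 dominate these sums. Without them the quotient was 12.4, 9.76 and 8.89 in WT, against 58.8, 41.7 and 25.8 in null, and the genotypes then did not overlap. The slow sum beneath it was only 1.59, 3.95 and 2.84 in WT, against 2.15, 1.07 and 1.96 in null. Tnnc1 was its largest part in every library, so this quotient rests on low values and largely on 1 slow gene. Leaving these 3 out was chosen after their values were seen.

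Among genes used by all fibre types, Acta1, the actin of skeletal muscle (chr8:123891769-123894751, minus strand), was the most abundant and moved with the fast genes. It was at 2.21, 5.08 and 2.94 in WT, against 21.1, 5.31 and 8.55 in null. Null 2 exceeded WT 2 by a small margin, and null 1 was 2.47 times the next library (ratio 3.42, log2 fold change 1.48 ± 0.496, limma adjusted p = 0.81). Without null 1 the ratio was 2.03.

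Tcap, the titin cap of the Z-disc, was at 1.03, 0.692 and 1.44 in WT, against 4.32, 0.629 and 1.14 in null. Only null 1 stood apart, and the log2 fold change of 0.45 turned to −0.16 without it. Des, the intermediate filament desmin, which smooth muscle and some other cells also express, was at 0.309, 1.03 and 0.858 in WT, against 2.04, 0.925 and 0.962 in null. Neb, the ruler of the thin filament, was at 0.443, 0.536 and 0.311 in WT, against 0.494, 0.604 and 0.348 in null, with no visible order.

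Actn2 and Ryr1 had lower means in null. Actn2, the alpha-actinin of all fibre types and of heart, was at 0.545, 0.925 and 0.0155 in WT, against 0.517, 0.0381 and 0.118 in null. Ryr1, the calcium release channel, was at 0.240, 0.393 and 0.304 in WT, against 0.327, 0.248 and 0.184 in null. Both were highest in WT 2 and both overlapped between the genotypes. Myot, a Z-disc gene, was at 0.556 in null 1 and at most 0.0981 elsewhere. Xirp2 lay between 0.0427 and 0.313 and Ttn, the giant spring protein, between 0.00348 and 0.0887.

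Low abundance went with long transcripts. The 8 muscle genes with an annotated transcript of at least 5000 bases had mean abundances from 0.0352 to 0.631, and the 19 with transcripts under 2000 bases had a median of 7.46. The long ones include all 4 myosin heavy chains, Ttn, Neb, Ryr1 and Xirp2. Over 12624 genes Spearman's rho of abundance with transcript length was −0.138, across genes that are not independent replicates.

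The energy genes held the most abundant member of all. Car3, carbonic anhydrase of slow muscle, which fat cells also express, was at 31.2, 29.6 and 30.2 in WT, against 41.3, 37.5 and 26.9 in null. Its WT libraries were close together and null 3 lay below them (log2 fold change 0.19 ± 0.17, limma adjusted p = 0.81). Adipoq, a defining gene of fat cells, lay between 27.6 and 41.0, so fat was measurable in every library. The fat list of 12 genes summed to 179.6 to 266.4 in WT and to 196.6 to 277.7 in null, and its part in Car3 was not tested.

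Ckm, the muscle creatine kinase, was at 1.53, 4.53 and 2.70 in WT, against 11.3, 4.48 and 6.77 in null. Null 2 lay just under WT 2 (ratio 2.58, log2 fold change 1.24 ± 0.415, limma adjusted p = 0.81). Pgam2, the muscle form of a glycolytic mutase, was at 3.55, 5.79 and 3.20 in WT, against 8.17, 5.50 and 6.21 in null. WT 2 again lay among the null libraries (log2 fold change 0.63 ± 0.245, limma adjusted p = 0.81).

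Mb, the oxygen store myoglobin (chr15:77015487-77050670, minus strand), showed the steepest single-library pattern. It was at 0.737, 1.26 and 1.30 in WT, against 12.6, 1.22 and 0.933 in null. Null 1 was 9.71 times the next library, the largest such quotient among all 12813 tested genes, while null 2 and null 3 lay within the WT range. The log2 fold change of 1.02 ± 0.806 (limma adjusted p = 0.81) was −0.0034 without null 1. Exons of Mb overlap Apol6 and a predicted gene on the opposite strand.

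Eno3, Cox6a2 and Pygm had lower means in null. Eno3, the muscle enolase, was at 10.6, 13.9 and 10.4 in WT, against 14.1, 6.63 and 9.36 in null. Null 1 was its highest library and the other null libraries its lowest, and the log2 fold change moved from −0.26 (limma adjusted p = 0.822) to −0.52 without null 1, the single fall past an unadjusted p of 0.05 there. Cox6a2, a subunit of muscle cytochrome oxidase whose exon overlaps Itgad on the other strand, was at 9.74, 7.93 and 5.97 in WT, against 10.2, 5.87 and 5.09 in null. It too was highest in null 1, and null 2 and null 3 were its lowest libraries. Pygm, the muscle glycogen phosphorylase, was at 0.941, 1.36 and 2.09 in WT, against 1.55, 0.981 and 0.772 in null, with WT 3 highest. Ampd1, the muscle AMP deaminase, lay between 0.0199 and 0.488.

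Library by library, null 1 was the highest of the 6 libraries for 24 of the 38 muscle genes, against 18.9% of all genes above 0. It was highest for 11 of 14 fast, 5 of 9 shared, 7 of 8 energy and 1 of 7 slow genes. When the genes with a mean of at least 1 were ranked by null 1 over the next library, 8 of the first 50 and 11 of the first 100 were muscle genes of this set. The ranking held 12813 genes, 22 of them muscle genes. Null 1 was taken for the ranking because the sum of these same genes was highest there. Their high places were thus in part fixed beforehand and are a description only. Tcap, Myoz1 and Des also reached the mean of 1 only with null 1. The same ranking held, chosen here after their values were seen, genes known to respond to cell stress and tissue handling. Hspb1, a heat-shock gene, was 3.61 times the next library in null 1, and Hspa1a, another, was 2.55 times. Fosb and Jun, immediate-early genes, were 3.47 and 1.90 times, and Ccl2, an inflammatory chemokine, 3.53 times. The part of these responses in the muscle values was not tested. None of the 11 muscle genes was a slow gene: Tnnt1, Tnnc1 and Myl2 ranked 11155, 12325 and 12557. Among the WT libraries WT 2 was highest for 18 of 38, against 29.3% of genes with a mean of at least 1.

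**Figure D4:**
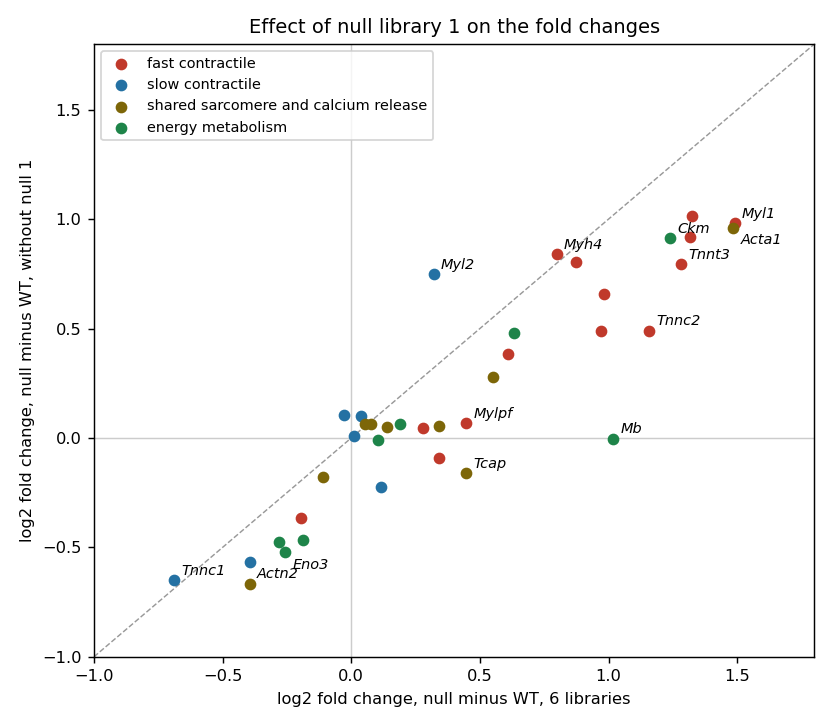
Each point is a muscle gene, with its log2 fold change (null minus WT) from all 6 libraries on the x axis and from 5 libraries without null 1 on the y axis; the dashed line marks equal values. Most fast genes lie below the line and above 0, Mb drops from 1.02 to about 0, and the slow gene Myl2 lies above the line.

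Genes listed for tendon, ligament and synovium were highest in null 1. The tendon, ligament and synovium list of 14 genes summed to 317.4, 300.4 and 348.5 in WT, against 782.9, 466.1 and 349.2 in null. Null 1 was highest for 14 of 14, against 18.9% of all genes above 0. Prg4, which encodes the lubricin of joint fluid, measured 169.9, 165.9 and 193.9 in WT, against 547.4, 294.9 and 216.1 in null. Prg4 made the largest part of the list's sum in every library, and Comp is also in the cartilage list. The sum therefore does not show which tissue these transcripts came from, cartilage included. The mean was higher in null for 12 of the 14 genes, against 51% of all genes above 0. Without null 1 it was higher for 9 of the 14, against 10761 of 22791 genes above 0. The median log2 fold change of the list was 0.32, and 0.089 without null 1. Tnmd, Scx, Mkx and Kera of the same list were at most 0.654, at log2 fold changes of 0.06, −0.02, −0.06 and 0.11. The part of tendon, ligament and synovium in the muscle values was not tested. Genes of muscle precursors were at or near 0. Myf5 and Mymk were at 0 in all libraries, and Pax7, Myod1, Myog and Myf6, which mark satellite cells and the steps of muscle formation, were each at most 0.176. The heart list of 12 genes summed to 20.1, 18.9 and 29.96 in WT, against 16.99, 16.2 and 9.26 in null. Of the 10 above 0, 8 had lower means in null, where 11346 of all 23176 genes above 0 did. Tnnt2 did not overlap, at 0.535 or more in WT and 0.358 or less in null. Myl4 did not overlap either, but only by 14.8795 in WT 2 against 14.8784 in null 2. The share of all genes lower in null without overlap is not given here, so these 2 genes are a description only. Of the 2 heart genes tested, Myl4 and Tnni3, 0 passed an adjusted or unadjusted limma p of 0.05. Tnnt2, under the mean of 1, had an unadjusted limma p of 0.031 in the fit without a filter (adjusted p = 0.794). Most of the heart sum was Myl4, an atrial light chain that lay between 7.17 and 26.5, and Tnni3, cardiac troponin I, lay between 0.431 and 2.31. Myl4 was lowest in null 3, the library with the lowest globin share. It was highest in WT 3, whose globin share was the lowest of the WT libraries. The part of the globin share in Myl4 was not tested. Myl7 and Nkx2-5, defining genes of heart muscle, were at 0 in all libraries and Myh6 was at most 0.0148. The smooth muscle list of 10 genes summed to 37.4 to 40.5 in WT and 38.8 to 49.6 in null.

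Further muscle genes outside the set were read in 3 lists. Of 43 sarcomere and costamere genes measured, 10 were tested, none passed an adjusted or unadjusted p of 0.05 in limma, and null 1 was highest for 26, against 18.9% of all genes above 0. In 4 of the 43 every null library lay above every WT library, against 5.03%. The limma fit without a filter put Mybph, Myom2 and Smyd1 higher in null at unadjusted p of 0.014, 0.031 and 0.045 (adjusted p = 0.794 for each), all at low abundance. The most abundant genes of this list, the tropomyosins Tpm3 and Tpm1 and the filament cap Tmod1, are widely expressed, and their log2 fold changes were 0.21, 0.19 and −0.23. Of 22 genes of excitation and calcium handling, 5 were tested, 0 passed an adjusted or unadjusted p of 0.05, and null 1 was highest for 10, against the same 18.9%. The most abundant were Asph, Srl and Chrnb1, at log2 fold changes of −0.21, 0.47 and −0.04. Of 21 further energy entries, 13 were tested, none passed an adjusted p of 0.05 and 1, Ak1, was higher at an unadjusted p (log2 fold change 0.58, limma adjusted p = 0.81). Aldoa, Ldha and Slc25a4 were its most abundant genes, at 0.32, 0.15 and 0.14. Hfe2, the gene of hemojuvelin, which skeletal muscle and liver express, was at 0, 0.0999 and 0.157 in WT, against 0.597, 0.119 and 0.169 in null. It followed the same pattern as Mb, with null 1 alone high.

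The microRNA deleted in the null mice lies in an intron of Col27a1 on chromosome 4, and microRNAs of this kind lower the transcripts that pair with their seed. Both mature forms are shown because the muscle genes were searched for their sites, with the seed (bases 2 to 8) in capitals, from RefSeq on GRCm38.p6 (chr4:63256904-63256924 and chr4:63256867-63256888, plus strand).
mmu-miR-455-3p: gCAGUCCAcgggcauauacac
mmu-miR-455-5p: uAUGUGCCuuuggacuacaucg
The 7-base site TGGACTG of the 3p form was in the longest annotated 3′UTR of 1 of the 38 muscle genes, against 14.8% of 11890 genes. The site GGCACAT of the 5p form was also in 1 of 38, against 9.6%. The median 3′UTR was 268 bases long for the muscle genes and 1301.5 for all, and a shorter UTR has fewer places for a match. The sites are shown, from transcripts of the GENCODE M21 annotation of the same build on chromosomes 11 and 2, with the match in capitals.
Tcap: gaTGGACTGtgtgactcag
Xirp2: ctcctcaaagGGCACATgggctaaagt
Of these 2 genes, Tcap had a log2 fold change of 0.45, or −0.16 without null 1, and Xirp2 one of 0.14. The groups overlapped for both.

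Promoters, taken as 250 bases before to 50 after a gene's start in RefSeq on GRCm38.p6, were at hand for 28 of the 38 genes and for 27025 genes in all. Muscle genes are classically switched on through E-boxes, the sites of MyoD and its relatives. The E-box CAGCTG, which reads the same on both strands and is one form of CANNTG, was found in 15 of the 28 (53.6%), against 18.3% of all genes. By role it was in 5 of 10 fast, 3 of 7 slow, 2 of 6 shared and 5 of 5 energy genes, so it did not divide fast from slow. Counted per window rather than per gene it was in 52.9% of 34 windows and 16.3% of 32851. CANNTG on either strand was in 89.3% against 75%. The sequence TATAAA on either strand was in 25% against 15.7%. The CArG box of SRF was in 3 genes, Acta1, Myl3 and Myh4 (10.7% against 1.81%), and the MEF2 site in Xirp2 and Ttn (7.14% against 0.636%). A match is a description of the letters and not a site shown to be used. The first windows below come from 4 genes whose null libraries all lay above WT, from Mb, highest in null 1 alone, and from the slow gene Tnni1, with CAGCTG in capitals.
Myl1 (chr1:66945263-66945292, minus strand): aggtacgtctgtCAGCTGtcaccaaaccaa
Atp2a1 (chr7:126463111-126463140, minus strand): cctcataaggacCAGCTGggggctgggggg
Acta1 (chr8:123894979-123895008, minus strand): gggaggggcagaCAGCTGgggatactctcc
Myh4 (chr11:67237733-67237762, plus strand): ccgcagctaggaCAGCTGaggtggctgctg
Mb (chr15:77022903-77022932, minus strand): agaattgggtttCAGCTGctggcagtggct
Tnni1 (chr1:135799341-135799370, plus strand): gggaaggaggggCAGCTGgaggggcagcgg
The 3 genes with a CArG box are shown next, with the box in capitals. Acta1 and Myh4 were without overlap, and the slow gene Myl3 had overlapping groups and a log2 fold change of 0.038.
Acta1 (chr8:123894829-123894858, minus strand): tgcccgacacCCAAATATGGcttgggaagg
Myh4 (chr11:67237698-67237727, plus strand): aaagagattgCCAAAAATGGttttgccaag
Myl3 (chr9:110763583-110763612, plus strand): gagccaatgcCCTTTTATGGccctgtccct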

How the data were processed

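Per the labels, total RNA from knee cartilage was sequenced, and the submitters' processing notes name FastQC, Trim Galore, kallisto, sleuth and mm10, without versions in the sources used here. The authors deposited a non-negative signal per gene (normalised abundance, not whole reads: 0.0543% of values above 0 were whole numbers), so no count model was used and depth and counting error are unknown. Scaling to a library total can move every gene when blood transcripts differ. Symbols were matched by GENCODE M21 for 35866 identifiers, and 13535 identifiers were at 0 in all 6 libraries. Genotypes were compared with limma 3.58.1 (R 4.3.3, trended prior) on log2(abundance + 0.5), which understates the change of low genes, with genotype as the single term. Genes with a mean of at least 1 were adjusted together by Benjamini-Hochberg; muscle genes under it take p from a fit of all 23176 genes above 0. Tables and figures used Python 3.11.15, pandas 2.3.3 and matplotlib 3.10.9.

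The muscle genes and the other lists were chosen with earlier results of these data known. Values in every library are given for the myosin heavy chains, the 4 most abundant genes of each role, any gene past adjusted p 0.05, and any gene lower in null or highest in a WT library. No 2 libraries were alike (median absolute log2 difference 0.158 to 0.357). Alternatives were other pseudocounts, filters, scalings and priors, a replicate block, and leaving out each library. Genes other than the muscle genes that passed adjusted p 0.05 are not reported here, and neither are the deposited alignment rates.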

Additional observations from a re-analysis of the deposited data

How the results depend on the processing

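No muscle gene passed an adjusted p of 0.05 (limma) under any alternative fit, the smallest being 0.1708. Of 684 log2 fold changes of single genes under the alternatives, 664 kept their sign and 20, in 12 genes, turned it, with adjusted p from 0.7423 and 0 calls gained or lost. Rescaling each library to the same total moved the median of all tested genes from 0.022 to 0.133 and turned Tnnt1 to 0.085. The other turns came from leaving out 1 library, where the log2 fold change ran from −0.092 to 0.58 for Myh1, −0.36 to 0.036 for Mybpc2, −0.034 to 0.057 for Myh7, −0.32 to 0.12 for Tnnt1, −0.26 to 0.75 for Myl2, −0.055 to 0.10 for Myl3 and −0.22 to 0.35 for Mybpc1. It ran from −0.00089 to 0.10 for Ttn, −0.017 to 0.18 for Neb, −0.16 to 0.89 for Tcap, −0.20 to 0.27 for Ampd1 and −0.0034 to 1.6 for Mb. The number of muscle genes past an unadjusted p of 0.05 ran from 3 to 11 when 1 library was left out. Over all tested genes it ran from 416 of 12829 without WT 1 to 2395 of 12772 without null 1. The 11 of 22 arose without null 2, where 504 of 12808 tested genes passed. The number of muscle genes at the ratio of 2 ran from 3 to 10, and the number without overlap from 6 to 12. A minimum of 5 in at least 3 libraries tested 12 muscle genes, of which 5 met the ratio of 2. Rescaling without marrow, blood and muscle genes left 3 without overlap, and the cause was not tested. Except without null 1, the shares of all genes at the ratio or without overlap are not given for these alternatives. Those counts are a description only. The fast sum without null 1, chosen after seeing the data, had a ratio of 1.37.

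The replicate numbers were not taken as pairs, since deviations of same-numbered libraries correlated at −0.126, 0.0534 and −0.0292 over 12813 genes. With the replicate number as a block, 0 muscle genes passed an adjusted p of 0.05. In that fit 6 passed an unadjusted p of 0.05, against 607 of 12813 tested genes, and 6 met the ratio of 2. In all 1 gene passed the adjusted p, against 4 without the block. The depth of each library is unknown, and most muscle genes lay under an abundance of 10, so differences among the 16 genes with a mean under 1 are the least certain.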
